A study of Mus musculus with 7 samples.

Results

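The genes described here are 8 markers of lymphatic endothelium, the cell layer that lines lymph vessels and lymph node sinuses: Prox1, Foxc2, Flt4, Lyve1, Stab1, Stab2, Reln and Mmrn1. They were chosen by name, and their rows were read from the deposited table by gene symbol. The table held 7 of the 8 among its 21176 genes, and Mmrn1 was not analysed here. RNA had been sequenced from follicular dendritic cells (FDCs), the stromal cells of B-cell follicles that display antigen, isolated from popliteal lymph nodes by flow cytometric sorting. The nodes came from non-immunized male mice aged 8 to 12 weeks. The 4 WT samples came from wild-type mice and the 3 Ngfr KO samples from mice lacking Ngfr, which encodes the p75 neurotrophin receptor. Each sample pooled nodes of several animals, so the replicate spread is that between pools. Strain, the allele and whether Ngfr was removed in all cells are not given in the sources used here, and neither are the markers used for the sort.

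Lymphatic endothelial cells arise from venous endothelium when the transcription factor PROX1 is switched on, and PROX1 keeps them lymphatic afterwards. They grow in response to VEGF-C, which binds VEGFR-3, the product of Flt4. In lymph nodes they line the subcapsular, cortical and medullary sinuses, where scavenger receptors take up material from the passing lymph. FDCs lie in follicles next to these sinuses and are not themselves endothelial.

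Libraries held 17244925 to 18873542 reads in WT and 20741770 to 21538400 in Ngfr KO, so every Ngfr KO library was the deeper. Values are normalised read counts on the scale of the deposited table, where a value of 1 stands for 230.1 to 295 reads. Of the reads, mitochondrially encoded genes took 5.55% to 7.42% (WT) or 3.14% to 4.97% (Ngfr KO), and their part in the results below was not tested. The targeted gene Ngfr had values of 0.377, 0.677, 1.3 and 1.14 in WT replicates 1 to 4 and 0.305, 0.353 and 0.184 in Ngfr KO replicates 1 to 3. All WT values were the higher, but 46 to 104 Ngfr reads remained in each Ngfr KO library. Of 12 FDC markers, all 12 were present in every library, and their values summed to 1742 to 4952 for WT and 7538 to 9997 for Ngfr KO. FDC and lymphatic endothelial transcripts were thus present in the same sorted samples.

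Lymphatic endothelial genes were lower in Ngfr KO than in WT. In 6 of the 7 genes (Prox1, Foxc2, Flt4, Stab1, Stab2 and Reln) all 3 Ngfr KO values were beneath all 4 WT values, which was the case for 13.1% of all genes in the table. In the remaining gene, Lyve1, the ranges overlapped. The WT mean exceeded the Ngfr KO mean by a factor that ran from 2.45 for Lyve1 to 9.73 for Reln. With edgeR on the recovered reads, 5 of the 7 genes were called lower at a Benjamini-Hochberg adjusted p under 0.05, against 6.55% of the 16751 genes tested, and their median log2 change was -1.90 against -0.02 over all genes. With limma on log2(value + 1), 6 genes reached a value of 1 in 3 or more samples, and all 6 were called lower, against 15.8% of 8326 genes tested. That share of lower calls among all genes fell to 10.4% without WT replicate 1, 11.1% without Ngfr KO replicate 1 and 9.69% without Ngfr KO replicate 2. Reln passed the filter on low values through the WT samples alone, so its limma call is not independent of that filter, and Foxc2 failed it. No gene of the 7 was called higher by limma, edgeR or DESeq2, where 18.3% of all genes were by limma and 8.67% by edgeR, and none was higher at an unadjusted p under 0.05. In such bulk samples, fewer lymphatic endothelial cells, less RNA per cell and a larger share of RNA from other cells cannot be told apart.

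**Figure D1:**
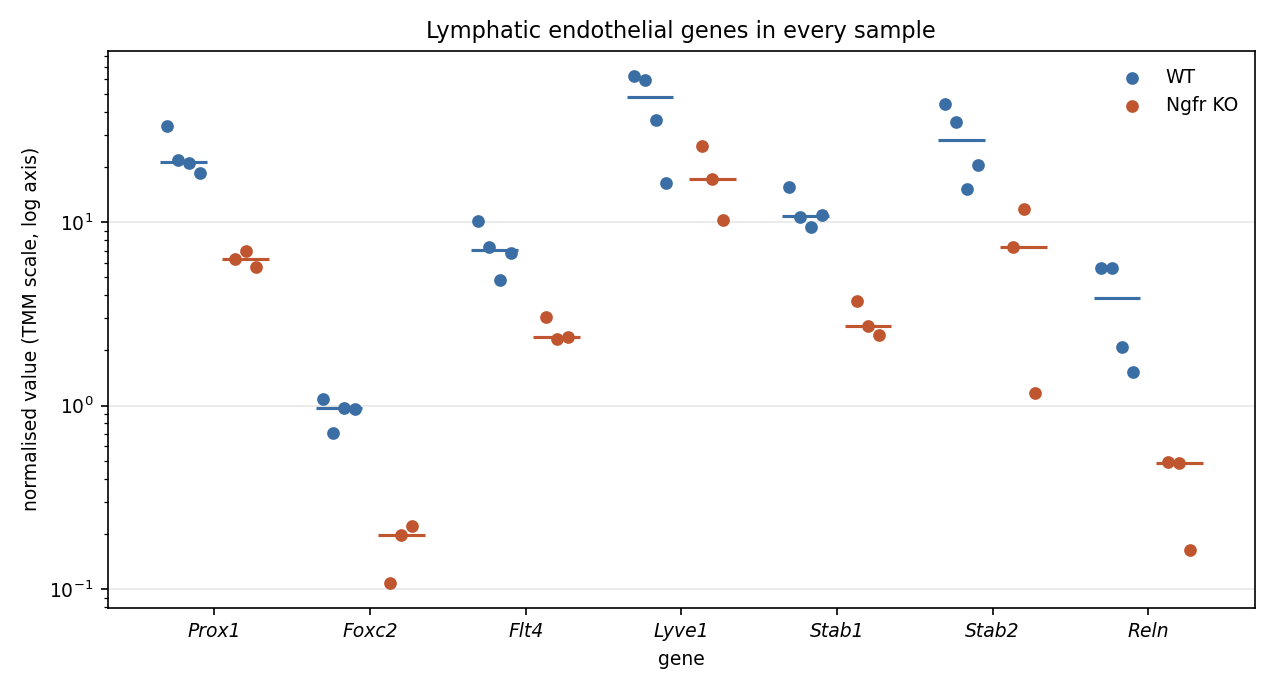
Normalised value (log axis) of each lymphatic endothelial gene in every sample; points are the 4 WT and 3 Ngfr KO samples in replicate order and bars are group medians. The groups are apart for all genes but Lyve1, where WT replicate 4 at 16.3 lies below Ngfr KO replicates 1 and 2.

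The transcription factors came first. Prox1 (ENSMUSG00000010175, chromosome 1, 190118035 to 190170714, minus strand, GRCm38) encodes the homeobox factor that sets lymphatic identity. Its values were 33.5, 21.7, 21.0 and 18.5 in WT replicates 1 to 4 and 6.28, 7.0 and 5.69 in Ngfr KO replicates 1 to 3. WT replicate 1 stood highest, and the 3 Ngfr KO samples lay within a ratio of 1.23 of each other, the narrowest spread among these genes. The log2 change was -1.72 (limma, SE 0.21, adjusted p = 3.20e-04), and the edgeR log2 change was -1.83 (SE 0.24, adjusted p = 0.00387). A two-sided exact permutation test of the values returned p = 0.0286, the smallest that the 35 ways to split 7 samples allow.

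Foxc2 (ENSMUSG00000046714, chromosome 8, 121116171 to 121118895, plus strand) encodes a forkhead factor needed for lymphatic valves. It was the lowest of the genes by normalised value in 6 of the 7 samples (Reln was lower in Ngfr KO replicate 3), at 1.08, 0.711, 0.974 and 0.965 in WT and 0.109, 0.197 and 0.220 in Ngfr KO. These values rest on 190 to 278 reads per WT library and 30 to 58 per Ngfr KO library. The gap between the groups was wider than the spread within either. By edgeR its log2 change was -2.34 (SE 0.39, adjusted p = 0.00638), with p = 0.0286 in the two-sided exact permutation test.

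Several of the genes carry short matches to the binding letters of endothelial and lymphatic transcription factors in the 300 bases around their start sites (250 before and 50 after, RefSeq, GRCm38.p6). Windows were held for 5 of the 7 genes, with 2 start sites for Prox1; Lyve1 and Foxc2 had none. The letters searched, on both strands, were CAGGAA for ETS factors, ACAAAG for SOX factors, AGGTCA for NR2F nuclear receptors, AGATAA for GATA factors, GGAAAA for NFAT and GTAAACA for forkhead factors. They were chosen after the expression values were seen, because ETS, SOX, NR2F, GATA, NFAT and forkhead genes are among those described here. The windows of Prox1, Stab1 and Stab2 are shown, since these hold all the matches found, and capitals mark the matches. Flt4 and Reln, whose windows hold no match, were lower in Ngfr KO too.
Prox1, chr1:190170778-190171077, minus strand: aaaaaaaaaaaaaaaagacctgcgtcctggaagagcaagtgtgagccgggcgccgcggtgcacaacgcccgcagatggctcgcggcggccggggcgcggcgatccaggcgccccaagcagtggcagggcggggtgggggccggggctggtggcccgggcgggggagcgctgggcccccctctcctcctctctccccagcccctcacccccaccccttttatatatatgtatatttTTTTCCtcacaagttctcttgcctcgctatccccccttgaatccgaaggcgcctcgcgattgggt
Prox1, chr1:190169466-190169765, minus strand: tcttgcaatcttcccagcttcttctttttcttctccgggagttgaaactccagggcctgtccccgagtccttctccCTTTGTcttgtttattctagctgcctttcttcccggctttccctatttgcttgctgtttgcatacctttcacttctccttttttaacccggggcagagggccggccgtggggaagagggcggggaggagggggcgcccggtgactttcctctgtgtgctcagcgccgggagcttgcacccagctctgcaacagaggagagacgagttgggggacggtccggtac
Stab1, chr14:31168592-31168891, minus strand: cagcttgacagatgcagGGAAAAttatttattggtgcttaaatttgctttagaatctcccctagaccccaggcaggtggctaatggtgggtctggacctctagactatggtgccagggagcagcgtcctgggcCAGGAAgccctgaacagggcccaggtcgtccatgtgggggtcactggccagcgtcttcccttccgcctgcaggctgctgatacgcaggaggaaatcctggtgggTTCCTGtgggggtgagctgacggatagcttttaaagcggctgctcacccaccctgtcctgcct
Stab2, chr10:87007893-87008192, minus strand: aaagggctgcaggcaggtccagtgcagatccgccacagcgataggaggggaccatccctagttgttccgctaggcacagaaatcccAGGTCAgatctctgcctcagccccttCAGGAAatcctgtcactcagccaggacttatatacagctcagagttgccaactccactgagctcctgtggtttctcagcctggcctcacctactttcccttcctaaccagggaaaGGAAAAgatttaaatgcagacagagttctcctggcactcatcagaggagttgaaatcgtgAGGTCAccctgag
The ETS letters occurred in 2 of the 6 windows (Stab1 and Stab2) and in 30.6% of 32851 windows over all genes. The NFAT letters occurred in 3 of the 6 windows and in 23.4% of all windows. The SOX and NR2F letters each occurred in 1 of the 6, against 18.7% and 16.3% of all windows. The GATA and forkhead letters were in none of the 6, and in 11.2% and 3.65% of all windows. At Stab2 the AGGTCA letters occurred at position -164 from the start site and again at position 38. The windows of Reln and Flt4 held no match and were rich in G and C, at 80.7% and 70.3%, against a median of 52.7% over all windows and 53.0% at Stab2.

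Growth factor signalling was read from Flt4 and its partners. Flt4 (ENSMUSG00000020357, chromosome 11, 49609263 to 49652739, plus strand) encodes the receptor for VEGF-C and VEGF-D. Its values were 10.2, 7.32, 4.86 and 6.79 in WT and 3.04, 2.30 and 2.36 in Ngfr KO. The lowest WT sample, replicate 3, stayed above the highest Ngfr KO sample, replicate 1. The log2 change was -1.18 (limma, SE 0.21, adjusted p = 0.00166), and by edgeR it was -1.43 (adjusted p = 0.00813), while the two-sided exact permutation test of the values returned p = 0.0571. Of 14 listed genes of lymphatic growth signalling, 12 were in the table; edgeR, which tested all 12, called 7 lower and 0 higher, with a median log2 change of -1.24. limma tested 9 and called 8 lower and 0 higher; 1 of the 8, Angpt1, passed the filter on low values through WT alone. Among all genes tested, edgeR called 6.55% lower and 8.67% higher, and limma called 15.8% lower and 18.3% higher. At an unadjusted p under 0.05, limma had 0 and edgeR 1 of the listed genes higher, and that was Vegfc.

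Nrp2, the VEGFR-3 coreceptor neuropilin-2, fell from 7.04 ± 2.16 (SD over the 4 WT samples) to 2.32 ± 0.27 (SD over the 3 Ngfr KO samples), with a log2 change of -1.24 (limma adjusted p = 0.00137). Kdr, the gene of VEGFR-2, fell by 1.84 on the log2 scale, Efnb2, which encodes the ephrin-B2 of lymphatic valves, by 1.44, and Tek, the angiopoietin receptor, by 1.37. Genes shared by blood and lymphatic endothelium fell as well, and edgeR called 10 of 12 lower, against 6.55% of all genes tested. Their limma median log2 change was -1.17 over 12 tested, against 0.02 over all genes. Of these 12, Esam, Tal1, Eng and Cd93 had passed the limma filter through WT alone, so that median is not independent of the filter. Which endothelium carried the falls of Kdr, Efnb2 and Tek was not tested. The ligand Vegfc moved the other way in level: it had 0.420, 0.202, 0.0261 and 0.381 in WT and 0.715, 0.682 and 0.969 in Ngfr KO. Vegfc values were thus apart between genotypes, as were those of 12.5% of all genes in the table in that direction. The difference was not called by edgeR (log2 change 1.67, SE 0.67, adjusted p = 0.118). Vegfd was not analysed here. Angpt2, a ligand of TEK, had overlapping groups (limma adjusted p = 0.878).

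The uptake receptors followed. Lyve1 (ENSMUSG00000030787, chromosome 7, 110850607 to 110863239, minus strand) encodes a hyaluronan receptor of lymphatic endothelium that some macrophages also carry. Its values were 62.5, 59.5, 36.2 and 16.3 in WT and 26, 17.2 and 10.3 in Ngfr KO. WT replicate 4 lay below Ngfr KO replicates 1 and 2, so the groups overlapped. The log2 change was -1.17 (limma, SE 0.42, adjusted p = 0.0465), close to the threshold, while edgeR gave an adjusted p of 0.0975 and the two-sided exact permutation test p = 0.143. The limma call was lost without WT replicate 1 (adjusted p = 0.114), 2 (0.114) or 3 (0.0753) and without Ngfr KO replicate 2 (0.106) or 3 (0.169).

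Stab1 (ENSMUSG00000042286, chromosome 14, 31139013 to 31168641, minus strand) encodes stabilin-1, a scavenger receptor of sinusoidal and lymphatic endothelium and of macrophages. Its values were 15.5, 10.7, 9.43 and 10.9 in WT and 3.74, 2.73 and 2.44 in Ngfr KO. The lowest WT sample, replicate 3, stayed well above the highest Ngfr KO sample, replicate 1. The log2 change was -1.66 (limma, SE 0.19, adjusted p = 3.15e-04), and by edgeR it was -1.90 (adjusted p = 0.00338), with p = 0.0286 in the two-sided exact permutation test.

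Stab2 (ENSMUSG00000035459, chromosome 10, 86841198 to 87008025, minus strand) encodes stabilin-2, the paralogous clearance receptor for hyaluronan. Its values were 44.1, 35.2, 15.2 and 20.6 in WT and 7.34, 11.8 and 1.18 in Ngfr KO. No Ngfr KO value reached the WT range, but Ngfr KO replicate 3 stood far below the other Ngfr KO samples, with 294 reads against 2024 and 3486. The log2 change was -2.16 (limma, SE 0.51, adjusted p = 0.00759), and without Ngfr KO replicate 3 it was -1.41 (limma adjusted p = 0.0179). edgeR and DESeq2 did not call it, with adjusted p-values of 0.0651 and 0.0549, and the two-sided exact permutation test returned p = 0.0571.

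Reln (ENSMUSG00000042453, chromosome 5, 21884454 to 22344702, minus strand) encodes reelin, a large secreted glycoprotein that lymphatic endothelium releases. Its values were 5.60, 5.61, 2.08 and 1.53 in WT and 0.493, 0.485 and 0.164 in Ngfr KO. WT replicates 1 and 2 stood above replicates 3 and 4, and all 4 stood above the Ngfr KO samples. The Ngfr KO libraries held 136, 143 and 41 Reln reads, fewer than the 230.1 to 295 reads that the pseudocount is worth. On the log2(value + 1) scale the change was -1.65 (SE 0.31, limma adjusted p = 0.00252), and by edgeR it was -3.19 (SE 0.58, adjusted p = 0.00813), the furthest fall among the 7 genes. The two-sided exact permutation test of the Reln values returned p = 0.0857.

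The genes did not vary in the same way within a genotype. WT replicate 1 was the highest WT sample for 6 of the 7 genes, and Ngfr KO replicate 3 was the lowest Ngfr KO sample for 5 of them. Among WT samples the highest value was 1.52 times the lowest for Foxc2, 1.64 for Stab1 and 1.81 for Prox1, but 2.89 for Stab2, 3.66 for Reln and 3.84 for Lyve1. Among Ngfr KO samples that ratio was 1.23 for Prox1, 1.32 for Flt4, 1.53 for Stab1 and 2.02 for Foxc2, against 2.53 for Lyve1, 3.01 for Reln and 10.04 for Stab2. Lyve1, Stab2 and Reln thus had the widest spread in both genotypes, and Foxc2 was even in WT but less so in Ngfr KO. Divided by Prox1 in the same sample, Stab1 was 0.449 to 0.590 across WT and 0.391 to 0.595 across Ngfr KO samples, so its ratio to Prox1 had overlapping ranges. Reln divided by Prox1 was 0.0828 to 0.258 (WT) and 0.0289 to 0.0786 (Ngfr KO), with no overlap. Lyve1 divided by Prox1 was 0.878 to 2.74 (WT) and 1.80 to 4.14 (Ngfr KO), with overlap; these ratios are descriptions without a test.

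Levels of different genes were compared per kilobase of annotated exon (GENCODE M21). In WT, Lyve1 was the most abundant, at 5.57 to 21.4 per kb (median 16.4), and Reln the least, at 0.0646 to 0.237 per kb (median 0.162). Between them the medians per kb were 3.19 for Stab2, 2.55 for Prox1, 1.05 for Stab1, 0.857 for Flt4 and 0.356 for Foxc2. The ranges of the neighbours Stab2 and Prox1 overlapped, as did those of Stab1 and Flt4, and no other neighbouring pair overlapped in WT. In Ngfr KO the order was the same except that Flt4 (median 0.286 per kb) and Stab1 (0.266 per kb) changed places with overlapping ranges. The ranges of Stab2 and Prox1 overlapped in Ngfr KO too.

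**Figure D2:**
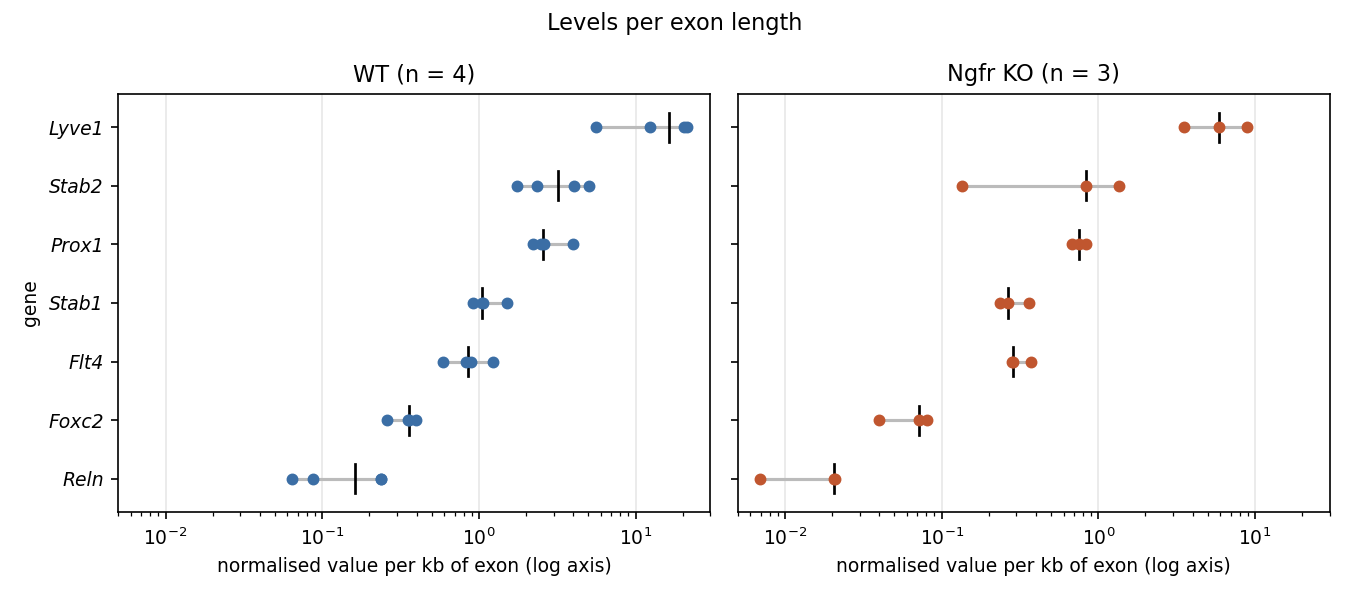
Normalised value per kilobase of exon (log axis) for each gene, with WT samples on the left and Ngfr KO samples on the right; points are samples, grey lines the range and black ticks the median. Lyve1 is highest and Reln lowest in both genotypes, and Stab2 has the widest range in Ngfr KO, 0.134 to 1.35 per kb.

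Genes that act with Prox1 in lymphatic specification, valves and junctions were mostly lower, with a pair of exceptions. Of 14 listed genes, all in the table and all tested by edgeR, edgeR called 9 lower and 2 higher, and their median log2 change was -1.51 against -0.02 over all genes. limma tested 12 and called 10 lower and 2 higher, but Foxc1, Gata2 and Tbx1 passed the filter on low values through the WT samples alone, so 3 of the 10 limma calls are not independent of that filter. The shares of all genes tested were 6.55% lower and 8.67% higher by edgeR, and 15.8% and 18.3% by limma. Hhex, called lower by limma (adjusted p = 0.0443), overlapped between genotypes, and edgeR did not call it (adjusted p = 0.151). The summed value of the 14 was not lower: it ran from 88.9 to 105 across WT and from 97.7 to 136 across Ngfr KO samples, of which the connexin gene Gja4 took 57.3 to 89.7. Nr2f2, which encodes the nuclear receptor COUP-TFII that induces Prox1, fell from 19.6 ± 5.3 (SD, 4 samples) to 7.12 ± 0.77 (SD, 3 samples), a log2 change of -1.31 (limma adjusted p = 0.00101). Sox18, the SOX factor upstream of Prox1, fell by 1.31 on the log2 scale. Gata2, a valve factor, fell by 2.16 on the log2 scale by edgeR (adjusted p = 0.00668). Cldn11 and Cldn5, which encode tight junction proteins, fell by 1.83 and 1.82. Nfatc1, which encodes an NFAT factor, fell by 0.91. Foxc1, a forkhead factor gene, fell by 2.07 by edgeR (adjusted p = 0.0105). Itga9, the valve integrin chain, fell by 0.83 (limma adjusted p = 0.00870). The exceptions were the connexin genes, and which cells carried their rise was not tested. Gja4, encoding connexin 37, rose from 4.11, 10.4, 19.3 and 20.9 in WT to 57.3, 89.7 and 70.9 in Ngfr KO (log2 change 2.52, limma adjusted p = 0.00134), and Gja1, encoding connexin 43, rose by 0.76.

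Genes of lymph node sinus endothelium were divided. Of 18 listed genes, limma called 6 lower and 5 higher, 6 were not called and 1 was too low to test; 1 of the 6 lower, Thy1, passed the filter on low values through WT alone. edgeR, which tested all 18, called 3 lower and 3 higher. The shares over all genes tested were 15.8% lower and 18.3% higher by limma, and 6.55% and 8.67% by edgeR. Itga2b, an integrin chain on the floor of the subcapsular sinus, had 11.1, 9.38, 7.58 and 5.97 in WT and 4.83, 3.15 and 2.85 in Ngfr KO (log2 change -1.04, limma adjusted p = 0.00405). Ackr4, the scavenging chemokine receptor of the sinus ceiling, fell from 19.1 ± 9.8 (SD, 4 samples) to 5.95 ± 3.81 (SD, 3 samples), with a limma adjusted p of 0.0166 but an edgeR adjusted p of 0.0846. Madcam1, Coch and Ccl20, genes of the sinus floor, rose instead, by 2.69, 2.21 and 3.23 on the log2 scale. Madcam1 and Coch are FDC genes too, and which cells carried the rise of these genes or of Ccl20 was not tested. Marco, a scavenger receptor of medullary sinuses and macrophages, had 69.0, 81.8, 73.2 and 20.8 in WT and 23.1, 49.8 and 1.42 in Ngfr KO, with overlap (limma adjusted p = 0.0756). Ccl21a, a homing chemokine shared with reticular stroma, and Pdpn, the podoplanin gene shared with stroma and FDCs, also had overlapping groups and were not called (limma adjusted p = 0.430 and 0.140).

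**Figure D3:**
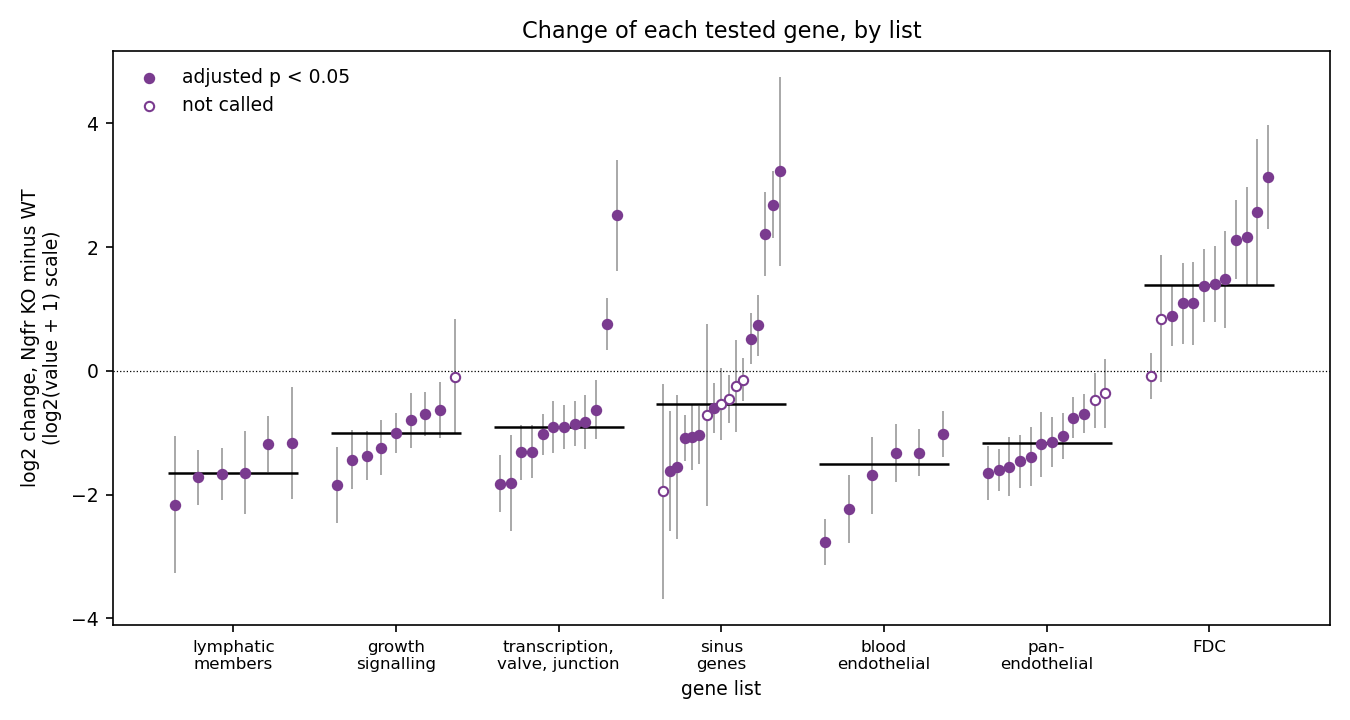
Log2 change (Ngfr KO minus WT, log2(value + 1) scale) of each gene tested by limma, grouped by list; filled points are called at an adjusted p under 0.05, grey bars are 95% confidence intervals and black lines are list medians. The 6 tested lymphatic genes lie below 0, and Reln among them and 5 of the 6 blood endothelial genes passed the filter on low values through WT alone; the sinus list is spread to both sides, and the FDC list lies mostly above 0 (median 1.39).

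Blood endothelial genes gave the context for the size of these falls. Of 12 listed blood endothelial genes, all in the table and all tested by edgeR, edgeR called 6 lower and 0 higher (0 also at an unadjusted p under 0.05), with a median log2 change of -1.90. Among all genes edgeR tested, 6.55% were called lower and 8.67% higher. The rest of the list was not called. Within it Aqp1, Flt1, Ly6c1 and Sox17 leaned lower (edgeR log2 change -2.49 to -1.10), while Cd34 (0.30) and Vwf (-0.01) did not. The 6 called lower were Plvap, Cd300lg, Emcn, Gpihbp1, Nos3 and Robo4. These were also the 6 that limma could test. All but Plvap passed its filter on low values through WT alone, with every Ngfr KO value under 1, so the limma calls of those 5 are not independent of the filter and are not counted here. The summed value of the 12 was 50.2 to 63.6 (WT) or 10.9 to 20.2 (Ngfr KO), whereas that of the 7 lymphatic genes ran from 75.6 to 172 across WT and from 22.3 to 47.0 across Ngfr KO samples. Pan-endothelial genes, which both kinds of endothelium express, were called lower in 10 of 12 cases by edgeR, against 6.55% of all genes tested. Pecam1, which encodes CD31, fell by 1.46 and Cdh5, which encodes VE-cadherin, by 1.55 on the log2 scale. Genes of high endothelial venules, another blood endothelium of lymph nodes, did not fall as a list. Of 6 listed, 5 were in the table, and edgeR called 0 lower and 0 higher, with a median log2 change of 0.67.

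Whether the lymphatic genes changed by another amount than blood endothelium was tested by subtracting the mean log2(value + 1) of the 6 tested blood endothelial genes in each sample before fitting limma. That reference is a weak one: 5 of its 6 genes had passed the filter on low values through WT alone, and their Ngfr KO values, all under 1, are compressed by the pseudocount. Its mean log2 change of -1.72 is thus partly set by the filter, and the relative values below are descriptions against these 6 genes, not a comparison with blood endothelium at large. None of the 6 lymphatic genes was called lower and none higher on that relative scale, where 97.9% of all genes tested were called higher and 0.0841% lower. At an unadjusted p under 0.05, 1 was higher (Flt4, relative log2 change 0.54, 95% confidence interval 0.0025 to 1.08, limma adjusted p = 0.0501). Flt4 was called higher without WT replicate 1 (adjusted p = 0.0192) or without Ngfr KO replicate 2 (0.0294) in the same limma fit. The relative change of Prox1 was 0.00 (interval -0.49 to 0.50), that of Stab1 0.06 (-0.43 to 0.55), that of Reln 0.08 (-0.59 to 0.74), that of Lyve1 0.56 (-0.25 to 1.37) and that of Stab2 -0.44 (-1.40 to 0.53). The outcome depended on the pseudocount and the reference. Against the log2 of the summed value of all 12 listed blood endothelial genes, a reference without a filter that was added after the data were seen and in which Plvap takes the largest share, limma called 1 of the 6 genes higher, among 98% of all genes tested, and 0 lower, where 0.0601% of all genes were. That gene was Flt4 (relative log2 change 0.64, interval 0.03 to 1.25, adjusted p = 0.0401). With a pseudocount of 0.1, which compresses low values less, limma called Lyve1, Prox1, Flt4 and Stab1 higher relative to the 6 reference genes, among 98.8% of all genes. Against the 12 pan-endothelial genes limma called Prox1, Stab1 and Stab2 lower, by 0.61, 0.55 and 1.05 on the log2 scale, where 0.42% of all genes were; 4 of those 12 (Esam, Tal1, Eng and Cd93) had likewise passed the filter through WT alone. No ranking of the lymphatic falls against those of blood endothelium is drawn from these values.

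Among markers of other cells in the sort, those of FDCs, reticular stroma and macrophages had summed values apart between genotypes, while those of B cells and T cells overlapped. Of 12 FDC markers, all tested, limma called 10 higher and 0 lower, where 18.3% of all genes tested were called higher and 15.8% lower. Of 12 reticular stroma markers it tested 9 and called 4 higher and 0 lower. The 12 summed to 104 to 233 across WT and 361 to 402 across Ngfr KO samples. By edgeR, which tested all 12 of each list, 9 FDC and 3 reticular stroma markers were called higher and 0 of either lower. Among all genes edgeR tested, 8.67% were called higher and 6.55% lower, and 0 of 12 is near that lower share. At an unadjusted p under 0.05 both tools had 0 of these markers lower. Their part in the fall of the lymphatic genes was not tested. Lyve1, Stab1 and Mrc1 are also macrophage genes, so macrophage markers were read beside them. Of 13 listed, 11 were in the table, summing to 9.64 to 11.2 across WT and 12.0 to 36.1 across Ngfr KO samples. Most of that sum was Timd4 and Lyz2. limma tested 2 of the 11 and called 1 higher (Lyz2, adjusted p = 0.0336). edgeR tested 7 and called 1 lower (C1qb) and 0 higher, where 6.55% of all genes tested were lower and 8.67% higher. The defining markers were not all alike. Adgre1, C1qa, C1qc and Folr2 reached at most 0.112, 0.0262, 0.0856 and 0.0524 in any library. C1qb had 41, 41, 32 and 3 reads in WT and 1, 0 and 0 in Ngfr KO. It thus passed the edgeR filter on low counts through WT alone, so its call is not independent of that filter. Csf1r and Siglec1 were present at low values with overlapping groups, 0.243 to 1.14 for Csf1r and 0.152 to 0.824 for Siglec1 over the 7 samples. Mertk, a receptor for dying cells, had 2, 56 and 0 reads in Ngfr KO, so it too passed the edgeR filter mainly through WT. It was lower in all Ngfr KO samples, at 0 to 0.190 against 0.412 to 0.665 in WT (adjusted p = 0.0168 by DESeq2, 0.111 by edgeR). Cd68, a lysosomal gene of macrophages, was higher in all of them, at 0.316 to 1.23 against 0.122 to 0.265 in WT (adjusted p = 0.0193 by DESeq2, 0.0567 by edgeR). The part of macrophage RNA in the values of Lyve1 and Stab1 was not tested. Mrc1, the mannose receptor gene, had 11, 10.2, 2.10 and 1.59 in WT and 2.17, 1.34 and 0.0040 in Ngfr KO; the groups overlapped although limma called it (adjusted p = 0.0410), and edgeR did not (adjusted p = 0.190). Markers of B cells and T cells had overlapping summed values, 10.8 to 17.1 in WT against 7.90 to 26.4 in Ngfr KO for B cells and 1.63 to 7.91 against 2.14 to 7.31 for T cells.

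**Figure D4:**
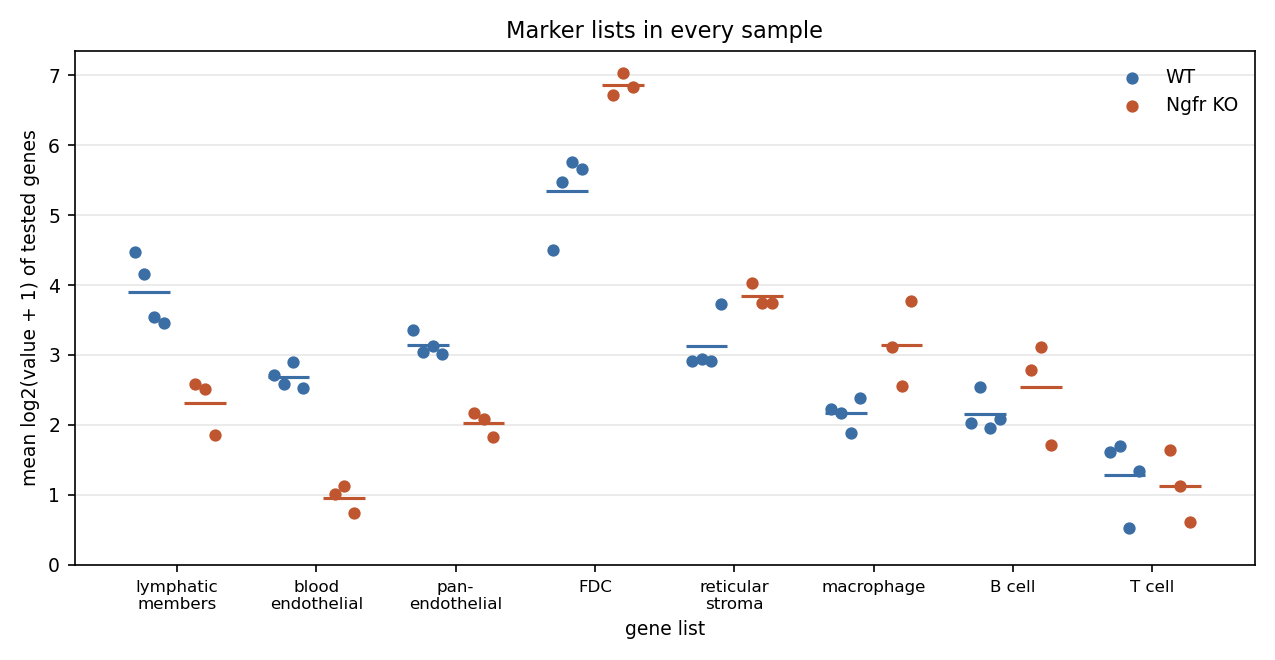
Mean log2(value + 1) over the tested genes of each marker list in every sample; points are samples in replicate order and bars are group means. The lymphatic, blood endothelial and pan-endothelial lists are lower in all 3 Ngfr KO samples than in all 4 WT samples, and the FDC list is higher; 1, 5 and 4 genes of the 3 lower lists had passed the filter through WT alone.

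The genes whose pattern lay closest to each lymphatic gene were found by the root mean square difference between centred log2(value + 1) profiles over the 7 samples, where smaller is more alike. The measure includes the difference between genotypes. Erg and Pecam1 were among the 3 nearest to Prox1, at 0.152 and 0.160, after Shank3 at 0.151, against a median of 0.922 over all tested genes. Erg was also nearest to Stab1, at 0.117, followed by Foxp2 and Kank3. Clec1b and Ntn4 were among the 3 nearest to Lyve1, at 0.237 and 0.257. Txnip, F8 and Selenop were nearest to Stab2, at 0.352 to 0.362. These differences were larger than for the other genes, but the median over all tested genes was larger for Stab2 too, at 1.40. Sned1, Nedd4l and Agfg1 were nearest to Flt4, at 0.0819 to 0.0882, and Hmcn1, Tgfbr3 and Mylip to Reln, at 0.168 to 0.217.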

How the data were processed

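RNA from 7 sorted samples (4 WT, 3 Ngfr KO) was analysed from 1 deposited table of normalised signal per gene, which its name calls TMM (trimmed mean of M values). SMART-Seq v4 served for cDNA amplification and Nextera XT for library preparation, per the labels' protocols. The submitters' processing notes name bcl2fastq 2.20.0.422 and mm10; the aligner, the counter and the annotation are not given in the sources used here. In every sample 100% of the deposited signal values were whole multiples of 1 step (tolerance 0.01), which gave the reads; 3 reads correspond to values of 0.0102 to 0.0130. Of the identifiers, 21118 matched GENCODE M21 (GRCm38).

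limma 3.58.1 in R 4.3.3 (lmFit, eBayes with trend) was fitted on log2(value + 1) for genes reaching a value of 1 in 3 or more samples, without covariates; Benjamini-Hochberg adjusted p-values under 0.05 were called. edgeR 4.0.16 (quasi-likelihood test, filterByExpr, TMM) and DESeq2 1.42.0 were run on recovered reads. Log2 changes are from limma unless another tool is named; the pseudocount understates changes of low genes. Foxc2 was tested by exact permutation of its values. On simulated data with 200 genes changed 4-fold, limma (7960 genes tested) recovered 91% with 9.90% of calls false, and edgeR (8326 genes tested) 96.5% with 3.98% false. The limma share of false calls was thus above the level of 0.05. Far more genes, 2844, were called in the real data by limma, so the simulation does not cover so broad a change.

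The genes, the lists and the settings were chosen with earlier results of these data known. Named are the 7 genes, Ngfr, list genes with the largest changes or a role bearing on the 7, and the 3 nearest profiles, of which 1 is not reported here. Alternatives were pseudocounts, filters, scalings, count models, thinned reads, the replicate number as a block and leaving out each replicate.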

Additional observations from a re-analysis of the deposited data

Results flagged for a closer look

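Among 20 sets of WT values examined (the 7 genes, Ngfr and 12 marker lists), 3 had 1 sample whose gap to its nearest neighbour took so much of the range of the 4 that it passed Dixon's criterion; chance gives about 1 in 20 sets, here 1. None of the 3 was one of the 7 genes. The mean log2(value + 1) of the lymphatic transcription, valve and junction list stood at 2.61 for WT replicate 2 and at 2.78 to 2.79 for the remaining 3, a gap of 0.901 of the range. The sinus list stood at 2.97 for WT replicate 2 and at 3.29 to 3.30 for the others, a gap of 0.978. The reticular stroma list stood at 3.72 for WT replicate 4 and at 2.92 to 2.95 for the others, a gap of 0.963. WT replicate 4 was also the WT sample with the lowest Lyve1 and Marco, at 16.3 and 20.8, and the highest Ccl21a, at 73.5.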

How the results depend on the processing

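The direction of all 7 genes was negative under every alternative that gave a value (103 of 103), and 88 had an adjusted p under 0.05. Prox1, Stab1, Flt4 and Reln were called under each of their alternatives, Stab2 under 13 of 17 and Lyve1 under 6 of 17. Reln passed the filter on low values through the WT samples alone. Its limma calls under that filter are counted here but are not independent of it. Without the filter, Reln had an adjusted p of 0.0328 by limma. The log2 change ranged from -1.86 to -1.32 for Prox1, from -1.94 to -1.05 for Stab1, from -1.44 to -0.68 for Flt4 and from -3.20 to -0.66 for Reln, the smallest values with a pseudocount of 5. The number of genes called lower was 6, 5 or 6 when 1 replicate was left out, and 3 of 4 tested with a value of at least 10 required, a filter that Flt4 and Reln fail; Lyve1 was then not called (adjusted p = 0.0619). Over all genes 2844 were called, 535 under that filter (67.1% higher, against 53.7% as reported), and 1614 to 3006 when 1 replicate was left out. Relative to the blood endothelial list 0 lymphatic genes were higher, where 97.9% of all genes tested were. With a pseudocount of 0.1, 4 were higher, among 98.8% of all genes. With the summed value of the list as the reference 1 was higher, among 98%. When 1 replicate was left out, 0 to 1 were higher. With the pan-endothelial list as the reference 3 were lower, where 0.42% of all genes were. Of the 6 blood endothelial reference genes 5 had passed the filter through WT alone, as had 4 of the 12 pan-endothelial ones. The difference in Foxc2 values was -0.758, and -0.832 to -0.708 when 1 replicate was left out, where the exact test cannot go below 0.05 (p = 0.0667 or 0.1). With the replicate number as a block, 2717 genes were called, 6 of the 7 lower; same-numbered samples correlated at 0.298, -0.059 and -0.011, so the numbers were not taken as pairs. The shallowest values were those of Foxc2 and Reln, whose lowest counts were 30 and 41 reads. Where a setting changed a call, the cause was not tested.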
